A study of Mus musculus with 10 samples.

Results

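A group of 10 antioxidant enzymes of the jejunum, the middle segment of the small intestine, was followed in newborn mice that make interleukin-23 (IL-23) in the skin. They were chosen by gene symbol, and all 10 were present among the 24062 symbols counted in each library: the superoxide dismutases Sod1, Sod2 and Sod3, the catalase gene Cat, the glutathione peroxidases Gpx1, Gpx2, Gpx3 and Gpx4, and Nqo1 and Gclc. There were 5 libraries of wild-type mice (WT) and 5 of KSR23 mice, all C57BL/6 and all taken at postnatal day 5. KSR23 mice carry a knock-in cassette for both IL-23 subunits that is switched on by a cre recombinase under the keratin 14 promoter, a promoter of keratinocytes. The paper reports more IL-23 transcript in their skin than in tongue, esophagus or gut, and raised IL-23 and IL-22 in their serum. The WT mice were littermates without this expression. The comparison asks how gene expression in the intestine differs when IL-23 is made mainly in the skin in early life.

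Superoxide, a by-product of respiration and of oxidases, is converted to hydrogen peroxide by superoxide dismutases, and the peroxide is then removed by catalase in peroxisomes or by glutathione peroxidases, which spend reduced glutathione. Glutathione is made by a ligase of which Gclc is the catalytic subunit, and its oxidised form is recycled with NADPH. Several of these genes are classical targets of the stress-activated transcription factor NRF2, and the intestinal epithelium, which faces food and microbes, is known for a glutathione peroxidase of its own, Gpx2.

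Of the 10 enzymes, Gpx2 was higher in KSR23 jejunum by 15.5-fold in mean level and Gpx3 was lower by 2.83-fold. The other 8 were not called. A gene was called when its adjusted p (Benjamini-Hochberg over 17632 tested genes) in the likelihood ratio test of edgeR was under 0.05, and the quasi-likelihood test of the same package made the same 2 calls. Of all tested genes 18.5% were called, 9.74% higher and 8.76% lower in KSR23. For the quasi-likelihood test these shares were 15.4%, 8.47% and 6.91%. The number of enzymes called, 1 in each direction, was near the background. The median log2 fold change of the 10 enzymes was -0.24, beside 0.03 over all tested genes. All 10 passed the filter, which asked for 5 counts in any library, and the lowest count of any of them in any library was 20. Levels are in CPM, the counts of a gene per M counts of its library (M stands for mega), with totals adjusted by trimmed mean of M-values (TMM) factors.

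The libraries held 25.5 to 60.9 M counts in genes. Those numbered 4 and 5 in both groups were the highest or lowest of their group at 19.9 to 24.8% of genes, beside 48 to 70.1% for those numbered 1 to 3, where 40% is the share that 5 alike libraries would each have. Whether libraries 4 and 5 were independent of the others was not tested. If they were not, SDs, intervals and adjusted p-values over all 10 libraries would be too small. Results that turn on libraries 4 and 5 are therefore also given for the 6 libraries numbered 1 to 3. In those 6 the likelihood ratio test called 3.36% of genes, 2.01% higher and 1.35% lower, and the quasi-likelihood test called 0.812%, 0.574% higher and 0.238% lower. Gpx2 was the 1 enzyme called by each. The sum of 8 enterocyte markers was 71764 to 154574 CPM in WT and 36648 to 103777 CPM in KSR23 and none of these markers was at 0 throughout. In whole tissue, fewer cells of a type and less RNA per cell cannot be told apart.

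**Figure D1:**
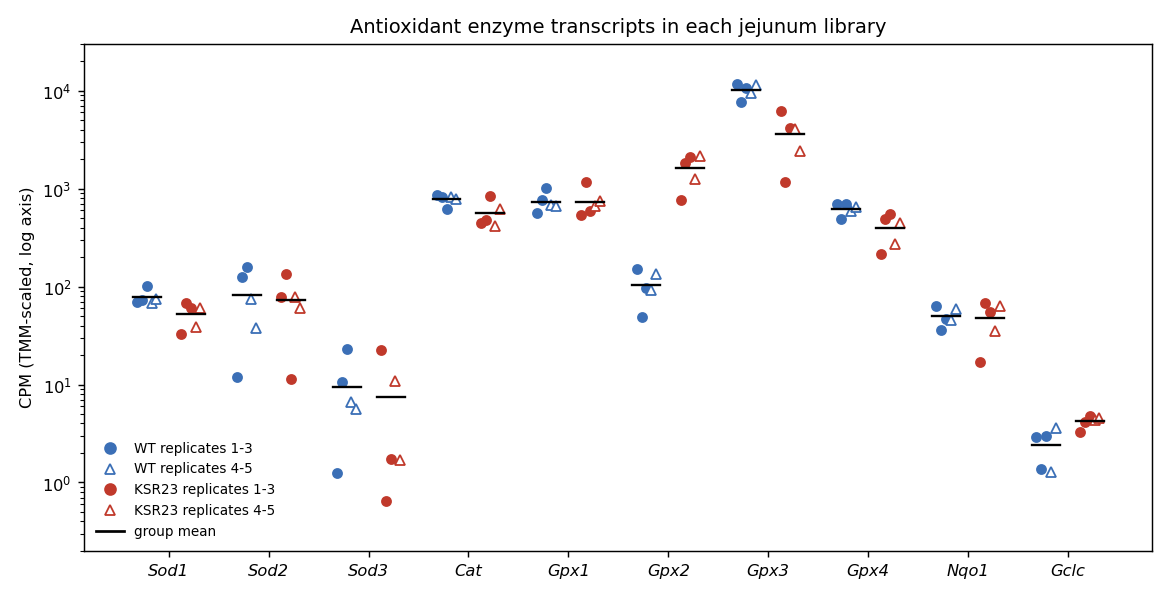
Each point is 1 library and the bars are group means, with CPM on a log axis for the 10 enzymes in WT and KSR23, and open triangles for replicates 4 and 5. The Gpx2 points of KSR23 (769.6 to 2135 CPM) lie above all WT points (49.3 to 150.3 CPM), and the Gpx3 points of KSR23 lie below all WT points.

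Gpx2 encodes the glutathione peroxidase of the gastrointestinal epithelium, a selenoprotein that reduces hydroperoxides inside the cell. Its level was 150.3, 49.3, 96.6, 93.2 and 133.1 CPM in WT replicates 1 to 5 and 769.6, 1843, 2108, 1263 and 2135 CPM in KSR23 replicates 1 to 5. Every KSR23 library stood above every WT library, and the lowest KSR23 value was replicate 1. Such separation upward was seen in 7.41% of all genes. The group means were 104.5 ± 39.2 CPM (SD, n = 5) and 1624 ± 592.4 CPM (SD, n = 5). On the log2 scale the difference was 3.96 (SE 0.36, 95% interval 3.25 to 4.67, adjusted p = 1.23e-19). The quasi-likelihood test gave an adjusted p of 4.99e-05. Among the 6 libraries numbered 1 to 3 it was 4.03, with adjusted p = 7e-07 by the likelihood ratio and 0.0294 by the quasi-likelihood test. The gene lies on chromosome 12 (76792333 to 76795554, minus strand, build mm10). It overlaps Fntb on the opposite strand, whose mean levels in WT and KSR23 were 8.18 ± 2.17 and 12.5 ± 2.3 CPM (SD, n = 5), and 3.17% of its 75-base stretches also occur in the pseudogene Gpx2-ps1. Reads with more than 1 alignment entered no gene. Gpx2-ps1 itself was counted at 0.188 ± 0.0982 and 1.83 ± 0.837 CPM (SD, n = 5).

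Gpx3 encodes the glutathione peroxidase that is secreted into plasma and extracellular fluid. It had the highest mean level of the 10 enzymes in both groups, per length too, although Gpx2 was higher in KSR23 replicate 2 and, per length, also in replicate 5. Its level was 11650, 7595, 10706, 9419 and 11559 CPM in WT and 6149, 1170, 4179, 4101 and 2398 CPM in KSR23. No KSR23 library reached the lowest WT library, and KSR23 replicate 2 was the lowest of all. This library also had the lowest sum of enterocyte markers, of which Apoa4 made up 23537 of 36648 CPM. Its Epcam (87.3 CPM) and Lct (176.3 CPM) were the lowest of all 10 libraries, and its Fabp1 and Fabp2 were below every WT library. Alpi lay within the WT range. Its Cdh1 was the highest of all 10 libraries (641.3 CPM). Its Vil1 (546.1 CPM) was above every WT library, as it was in KSR23 replicates 3, 4 and 5. The part of these markers in the result was not tested. Separation downward was seen in 6.99% of all genes. The means were 10186 ± 1703 and 3599 ± 1900 CPM (SD, n = 5 each). The log2 fold change was -1.50 (SE 0.38, 95% interval -2.25 to -0.76, adjusted p = 0.00156, quasi-likelihood 0.0208). With the libraries numbered 1 to 3 it was -1.35 and was not called (adjusted p = 0.315). The gene lies on chromosome 11 (54902453 to 54910377, plus strand), and none of its 75-base stretches occurs elsewhere.

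The stretches before the RefSeq transcription starts of both called enzymes are shown so that their letters can be read beside the levels. They come from RefSeq (GRCm38.p6), written 5′ to 3′ on the strand of the gene, Gpx2 at chr12:76795555-76795804 and Gpx3 at chr11:54902604-54902771, where bases that lie in an annotated exon were left off.
Gpx2: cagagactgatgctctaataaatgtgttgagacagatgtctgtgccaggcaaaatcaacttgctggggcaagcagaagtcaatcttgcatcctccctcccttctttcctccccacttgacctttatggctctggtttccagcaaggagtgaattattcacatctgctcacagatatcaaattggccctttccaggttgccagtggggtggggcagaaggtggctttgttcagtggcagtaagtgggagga
Gpx3: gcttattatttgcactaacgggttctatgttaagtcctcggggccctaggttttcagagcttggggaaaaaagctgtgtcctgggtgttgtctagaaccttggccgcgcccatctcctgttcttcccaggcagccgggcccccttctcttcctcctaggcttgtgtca
Neither holds TGACNNNGC, the core of the antioxidant response element bound by NRF2, nor TTCNNNGAA, the palindrome bound by STAT factors, on either strand of the 250 bases before any start listed. Of 32851 promoter windows of that length, 10.2% hold the former and 7.02% the latter. A window without these letters says nothing of the factor elsewhere. The Gpx3 window precedes the RefSeq start but lies inside the gene position given above, which begins at 54902453. Of the 10 enzymes, 8 had an entry, with Sod3 and Gclc having none, and 1 window held each motif.

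The intracellular Gpx1, which reduces soluble peroxides in the cytosol, had nearly equal means in the groups. Its level was 568.2, 771.8, 1012, 677.6 and 657.8 CPM in WT and 540.8, 1162, 588.3, 658.2 and 739.4 CPM in KSR23. The ranges overlapped almost fully, with means of 737.4 ± 169.4 and 737.7 ± 248.8 CPM (SD, n = 5 each) and a 95% interval of the log2 fold change from -0.56 to 0.56 (adjusted p = 0.999). Gpx4, which reduces lipid hydroperoxides in membranes and guards against ferroptosis, was 690, 490.5, 700.7, 589.4 and 653.1 CPM in WT and 215.5, 489.4, 546.9, 274.6 and 448.7 CPM in KSR23. KSR23 replicates 1 and 4 were lowest, while replicate 3 lay among the WT values. The log2 fold change was -0.66 (SE 0.30, 95% interval -1.25 to -0.07), which did not pass the adjustment (adjusted p = 0.112). Without KSR23 replicate 3 it was -0.81 (adjusted p = 0.0371). Of the 75-base stretches of Gpx4, 29.8% also occur in the pseudogene Gpx4-ps2 or in AC122253.3, so its level is less certain than those of Gpx1 and Gpx3, which share none.

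Measured per length, as CPM per kilobase of exon, Gpx2 stood at rank 6 of the 10 enzymes in WT and at rank 2 in KSR23. In WT the order was led by Gpx3 at 6390 ± 1069, then Gpx1 at 687.9 ± 158 and Gpx4 at 491.1 ± 68.2, then Cat at 299.7 ± 37.2, Sod1 at 120.7 ± 20.8 and Gpx2 at 97.9 ± 36.8 CPM per kilobase (SD, n = 5). Neighbours in this order overlapped between Gpx1 and Gpx4 and between Sod1 and Gpx2. Nqo1, Sod2, Sod3 and Gclc followed, each overlapping the next. In KSR23 the order was Gpx3 at 2258 ± 1192, Gpx2 at 1522 ± 555.2 and Gpx1 at 688.2 ± 232.1 CPM per kilobase, where Gpx3 overlapped Gpx2 and Gpx2 overlapped Gpx1. Gpx4 and Cat followed and overlapped each other, and Sod1 stood apart below them at 81.1 ± 24. Gclc had the lowest mean in both groups, at 0.707 ± 0.302 in WT and 1.23 ± 0.171 CPM per kilobase in KSR23, but overlapped Sod3, which was the lower of the pair in WT replicate 1 and KSR23 replicates 2, 3 and 5.

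The makeup of the 4 glutathione peroxidases within each library does not depend on scaling between libraries. Gpx3 made up 83.2 ± 2.44% of their counts per kilobase in WT (range 80.5 to 85.8%) and 45.7 ± 21% in KSR23 (18.7 to 73.4%). Gpx2 made up 1.24 ± 0.337% in WT (0.78 to 1.65%) and 32.6 ± 13% in KSR23 (13.7 to 44%; SD, n = 5 each). The ratio of Gpx2 to Gpx1 was 0.153 ± 0.0816 in WT (0.0641 to 0.266) and 2.29 ± 0.928 in KSR23 (1.43 to 3.6). In every KSR23 library the epithelial enzyme exceeded the ubiquitous one per length, and in every WT library it stood below it.

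**Figure D2:**
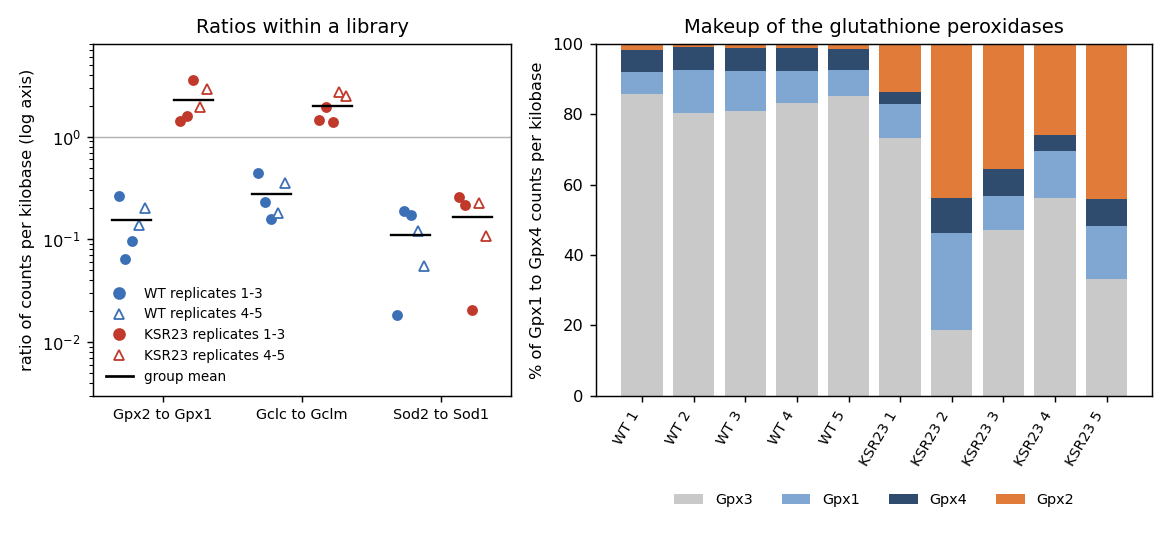
Left, ratios of counts per kilobase within each library on a log axis, with points for libraries and bars for group means. Right, the percent of Gpx1 to Gpx4 counts per kilobase that each of the 4 genes takes in each library, where Gpx2 takes at most 1.65% in WT and at least 13.7% in KSR23.

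The superoxide dismutases were not called. Sod1, the copper and zinc enzyme of the cytosol, was 70.3, 72.5, 100.7, 68.2 and 75.2 CPM in WT and 32.6, 67.6, 61, 38.5 and 60.2 CPM in KSR23. The groups did not overlap, but the gap was small, from 67.6 to 68.2 CPM. The log2 fold change was -0.57 (SE 0.29, 95% interval -1.14 to -0.01), with adjusted p = 0.163 by the likelihood ratio and 0.132 by the quasi-likelihood test. The partners that supply copper to Sod1 are described with the related genes.

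Sod2, the manganese enzyme of mitochondria, and Sod3, the secreted copper and zinc enzyme, spread far more between libraries of a group than between groups. Sod2 was 11.9, 125.3, 157.1, 74.8 and 37.5 CPM in WT and 77.9, 134.5, 11.5, 79 and 59.8 CPM in KSR23, so that its highest library was 13.2 times its lowest in WT and 11.7 times in KSR23. Sod3 was 1.24, 10.5, 23, 6.57 and 5.63 CPM in WT and 22.7, 0.645, 1.75, 10.9 and 1.69 CPM in KSR23, ratios of 18.6 and 35.1. The high and low libraries of both genes were found in both groups. The SD within groups on the scale of log2(CPM + 0.5) was 1.41 for Sod2 and 1.61 for Sod3, above 96.5% and 98.4% of 12889 genes with a mean over 1 CPM, whose median was 0.423. Their log2 fold changes were -0.16 (95% interval -1.42 to 1.1) and -0.32 (95% interval -2 to 1.37), the widest intervals of the 10 enzymes. Sod2 shares 16.2% of its 75-base stretches with other genes and Sod3 shares none. Among the related genes Idh2 and Sephs2 were, like Sod2 and Sod3, lowest in WT replicate 1 and highest in WT replicate 3. Their highest library was 19.6 and 18.6 times their lowest in WT, and 18 and 25.7 times in KSR23. The cause of this spread was not tested. The ratio of Sod2 to Sod1 per length was 0.111 ± 0.0733 in WT and 0.167 ± 0.0995 in KSR23 (SD over 5 libraries each), and the ranges overlapped.

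The promoter windows of Sod1 and Sod2 are shown because they are the windows among the 8 enzymes found that held a searched motif. Capitals mark the antioxidant response element core, read on the minus strand 56 to 48 bases before the start of Sod1 (chr16:90220512-90220753), and the STAT palindrome 185 to 177 bases before the start of Sod2 (chr17:13007589-13007816).
Sod1: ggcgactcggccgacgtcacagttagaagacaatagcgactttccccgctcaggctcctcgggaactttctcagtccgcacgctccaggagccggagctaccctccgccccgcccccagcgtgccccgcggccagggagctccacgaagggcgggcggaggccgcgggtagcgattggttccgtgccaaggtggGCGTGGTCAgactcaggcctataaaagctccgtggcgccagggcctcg
Sod2: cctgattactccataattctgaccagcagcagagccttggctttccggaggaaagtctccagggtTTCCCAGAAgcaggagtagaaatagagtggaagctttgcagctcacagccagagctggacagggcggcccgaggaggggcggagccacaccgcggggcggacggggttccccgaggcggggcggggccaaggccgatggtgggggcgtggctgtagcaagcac
Neither gene was called. A match here is a description of letters and not of a bound site.

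Cat, which splits hydrogen peroxide in peroxisomes, was 857.8, 827.8, 614.2, 823.5 and 792.6 CPM in WT and 443, 481.3, 849.7, 417.5 and 615.5 CPM in KSR23. KSR23 replicate 3 lay near the top of the WT range and the other 4 KSR23 libraries lay at or below the lower part of it. The log2 fold change was -0.48 (SE 0.27, 95% interval -1.01 to 0.05, adjusted p = 0.218), and without KSR23 replicate 3 it was -0.68 with adjusted p = 0.0294. Nqo1, a quinone reductase and NRF2 target, was 63.1, 36.3, 46.3, 45.8 and 59.4 CPM in WT and 17, 67.8, 55.4, 35 and 62.8 CPM in KSR23. The KSR23 values spanned the WT range on both sides, with a 95% interval of the log2 fold change from -0.81 to 0.66 (adjusted p = 0.921).

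Gclc, the catalytic subunit of the ligase that starts glutathione synthesis, was at a low level with 39 to 245 counts per library, and its SD within groups was 0.416 on the scale of log2(CPM + 0.5). It was 2.88, 1.38, 3.01, 1.27 and 3.57 CPM in WT and 3.27, 4.16, 4.81, 4.34 and 4.54 CPM in KSR23. The lowest KSR23 library lay under the highest WT library, and the log2 fold change of 0.80 (SE 0.36, 95% interval 0.1 to 1.51) did not pass the adjustment (adjusted p = 0.107). Its partner Gclm, the modifier subunit of the same ligase, was 10.5, 9.69, 31.2, 11.6 and 16.5 CPM in WT and 3.68, 3.48, 5.64, 2.62 and 2.99 CPM in KSR23. It fell, with each KSR23 library below the lowest WT library, and the difference was -2.11 on the log2 scale (SE 0.39, adjusted p = 8.03e-06). Among libraries 1 to 3 it was -1.97 and was not called (adjusted p = 0.0761, quasi-likelihood 0.211). The ratio of Gclc to Gclm per length was 0.274 ± 0.123 in WT (0.158 to 0.448) and 1.99 ± 0.591 in KSR23 (1.39 to 2.7; SD, n = 5), and in those 6 libraries it differed by 2.63 on the log2 scale. Gclm overlaps Gm17494 on the opposite strand and Gm6061 on the same strand, and 3.5% of its stretches are shared. Its promoter window holds the antioxidant response element core 134 to 126 bases before the start.

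**Figure D3:**
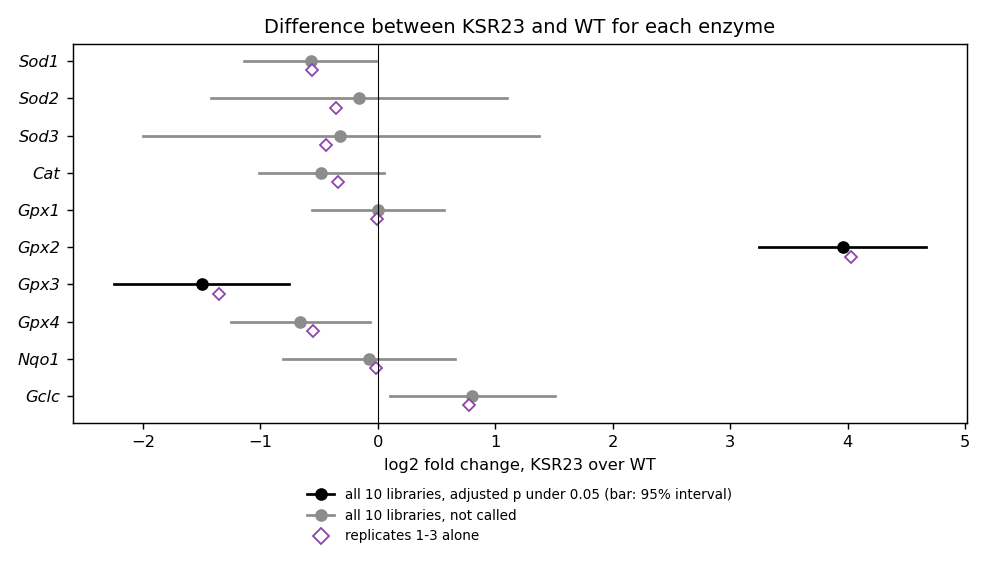
Log2 fold change of KSR23 over WT for the 10 enzymes in all 10 libraries, with bars for 95% intervals and filled black points for adjusted p under 0.05, beside the values from replicates 1 to 3. Gpx2 (3.96) and Gpx3 (-1.50) are the called genes, and the widest intervals are those of Sod2 and Sod3.

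The 73 related genes of 9 fixed lists were all tested, and 11 were higher and 9 lower, with 53 not called, or 27.4% called beside 18.5% of all tested genes. Their median log2 fold change was -0.03, beside 0.03 over all tested genes. By the quasi-likelihood test 11 were higher and 10 lower. Among libraries 1 to 3 the likelihood ratio test called 4 of them, Gsr, Ggt1, Chac1 and Pgd, and the quasi-likelihood test called 0.

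Among 11 genes that make, break down or recycle glutathione, 3 rose and 1, Gclm, fell. Ggt1, the brush border enzyme that cleaves extracellular glutathione, was 35.4, 37.6, 28.7, 37.6 and 32 CPM in WT and 85.9, 428.8, 416.3, 210.1 and 433.6 CPM in KSR23, and rose by 3.20 on the log2 scale (adjusted p = 6.26e-12). Gsr, which reduces oxidised glutathione, rose by 2.31, from 14.2 ± 6.13 to 70.4 ± 28 CPM (SD, n = 5 each; adjusted p = 1.54e-07). Both were higher in every KSR23 library than in any WT library. Chac1, a cytosolic glutathione-degrading enzyme, rose from 0.585 ± 0.344 to 5.11 ± 2.97 CPM (SD, n = 5 each; adjusted p = 2.38e-06), and Gss, the last enzyme of glutathione synthesis, was 353.5 ± 48.9 and 527.9 ± 120.7 CPM (adjusted p = 0.0962).

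Gsr consumes NADPH. Of 8 genes listed for NADPH supply 4 rose and 0 fell, where 9.74% of all tested genes were called higher. The list holds Tkt and Taldo1, which make no NADPH themselves, and of the other 6, whose enzymes do, 3 rose. Pgd, of the pentose phosphate pathway, was 110.5 ± 30.7 and 383.2 ± 134.3 CPM (SD, n = 5 each; log2 fold change 1.79, adjusted p = 4.72e-06), and every KSR23 library was higher than every WT library. G6pdx, the entry enzyme of that pathway, rose by 1.12 on the log2 scale (adjusted p = 0.00326), Tkt, of its non-oxidative branch, by 1.02 (adjusted p = 0.00201), and Idh1, the cytosolic isocitrate dehydrogenase, by 1.31 (adjusted p = 0.00112). In replicates 1 to 3 only Pgd of these was called by the likelihood ratio test (adjusted p = 0.0284). With Y-linked counts as a covariate Pgd alone kept its call (adjusted p = 0.0304, beside 0.311 for G6pdx, 0.24 for Idh1 and 0.165 for Tkt). Over all 20 alternatives G6pdx lost its call in 4, Idh1 and Tkt in 3 each and Pgd in 1.

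Selenium and copper, the cofactors of the peroxidases and of Sod1 and Sod3, have their own supply genes. Sepp1, the plasma selenium carrier selenoprotein P, was 7193, 4945, 5654, 5782 and 6896 CPM in WT and 2818, 1204, 4548, 2227 and 2884 CPM in KSR23. It fell by 1.16 on the log2 scale (adjusted p = 0.00519) without overlap, and KSR23 replicate 2, lowest for Gpx3, was also lowest here. It was not called in libraries 1 to 3 (adjusted p = 0.454) or with the Y-linked covariate (adjusted p = 0.0835). Its receptor gene Lrp8, at 0.341 ± 0.169 and 1.6 ± 0.725 CPM (SD, n = 5 each), rose by 2.23 (adjusted p = 0.000328) with overlap, and was not called in libraries 1 to 3 (adjusted p = 0.303) or with the Y-linked covariate (adjusted p = 0.066). The other 6 of the 8 genes of selenocysteine use were not called. Sephs2 had the widest 95% interval of the log2 fold change among them, -1.9 to 1.42. Of 10 other selenoproteins only the deiodinase Dio1 was called (log2 fold change -1, adjusted p = 0.0232, but 0.0891 without WT replicate 3). Among 4 copper genes, Ccs, the chaperone that loads Sod1, was 94 ± 9.76 and 45.4 ± 15.3 CPM (SD, n = 5 each; log2 fold change -1.05, adjusted p = 0.00322) with no overlap, Atox1 was lower (adjusted p = 0.0293, but 0.113 without KSR23 replicate 4), and the copper exporter Atp7a was higher in every KSR23 library (log2 fold change 1.18, adjusted p = 0.000811). In libraries 1 to 3 the likelihood ratio test did not call Ccs, Atox1 or Atp7a (adjusted p = 0.434, 0.615 and 0.182).

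Of the other glutathione peroxidases, Gpx8, of the endoplasmic reticulum, fell by 1.33 on the log2 scale (adjusted p = 0.000138), from 41.1 ± 9.66 to 16.4 ± 3.22 CPM (SD, n = 5 each), and Gpx7 had a log2 fold change of -0.76 with adjusted p = 0.0549 by the likelihood ratio and 0.05, just under the threshold before rounding, by the quasi-likelihood test. It was also called with DESeq2 (0.0137), RLE size factors (0.0469), a filter of 5 counts in every library (0.0344) and without WT replicate 1 (0.0443). Gpx5 and Gpx6 were near 0, with at most 12 counts in a library. Among 13 thioredoxin and peroxiredoxin genes, Prdx5 (log2 fold change -0.86, adjusted p = 0.00503) and the mitochondrial Txnrd2 (-1.74, adjusted p = 0.00205) were lower in every KSR23 library than in any WT library, and the other 11 were not called. In libraries 1 to 3 the likelihood ratio test did not call Gpx8, Prdx5 or Txnrd2 (adjusted p = 0.281, 0.455 and 0.184). Of 8 genes of NRF2, its regulators and haem breakdown, Osgin1 was higher (log2 fold change 1.3, adjusted p = 0.00435) and Blvrb lower (-1.3, adjusted p = 0.00683), with overlap. Neither was called in libraries 1 to 3 (adjusted p = 0.298 and 0.312) or with the replicate block (0.0592 and 0.0509), and Osgin1 was not called with the Y-linked covariate (adjusted p = 0.459). The gene of NRF2, Nfe2l2, was 139 ± 21.5 and 170.7 ± 58.7 CPM (SD, n = 5 each; adjusted p = 0.552), and Hmox1 was 26.6 ± 5.3 and 39 ± 8.58 CPM (adjusted p = 0.175).

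**Figure D4:**
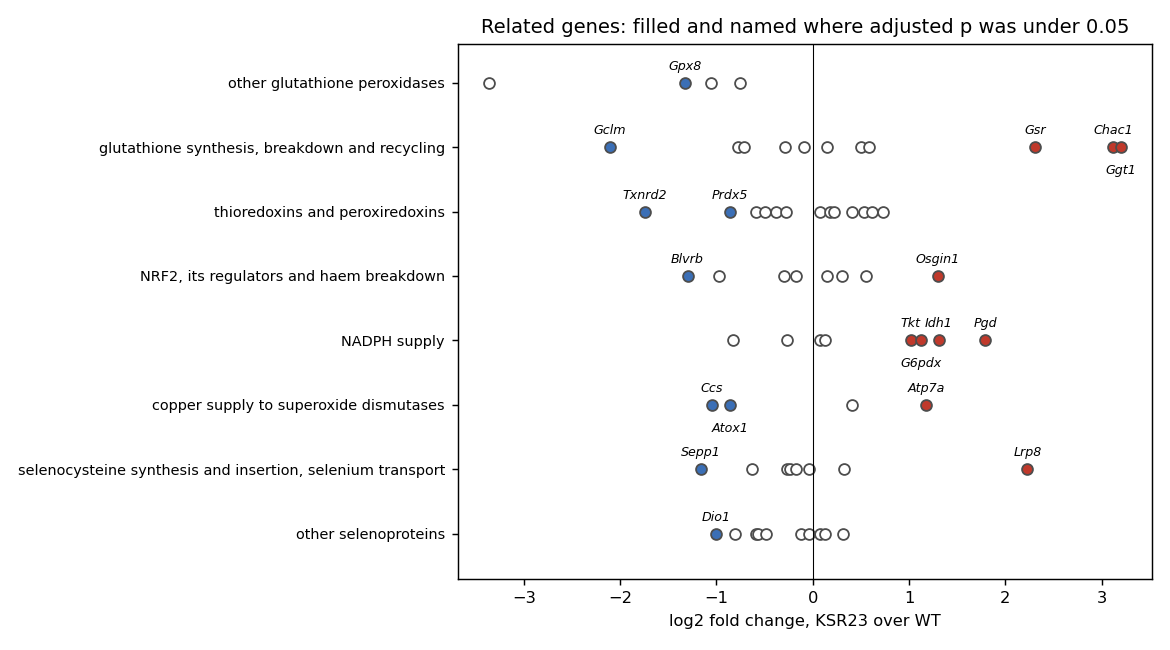
Log2 fold change of KSR23 over WT for the related genes by list, the peroxisomal list left out, with filled and named points for those called. The list of NADPH supply has its 4 called genes on the higher side, and the list of other glutathione peroxidases has its called gene Gpx8 on the lower side.

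Markers of other cells in the tissue are set beside these results. Enterocyte markers were called higher in 1 (Cdh1) and lower in 3 (Fabp1, Fabp2 and Lct) of 8, and by the quasi-likelihood test in 0 and 1. Sums of 6 smooth muscle genes were 1612 to 3665 CPM in WT and 1681 to 2269 CPM in KSR23, of 6 fibroblast genes 1132 to 1750 and 1034 to 1513, and of 5 endothelial genes 106.6 to 164.2 and 114.7 to 180.6 CPM, with 1 gene called lower in each list (0 in smooth muscle by the quasi-likelihood test). Macrophage genes summed to 644.7 to 787.1 CPM in WT and 484.8 to 667.8 CPM in KSR23, with 2 of 6 lower, and neutrophil genes to 4.2 to 12.5 and 4.3 to 12.1 CPM, with 1 of 5 higher (0 by the quasi-likelihood test). Erythroid genes, with Hba-a1 and Hbb-bt at 0 throughout, summed to 10.6 to 51.5 and 18 to 58.7 CPM. Pancreatic acinar genes summed to 73.5 to 102.6 CPM in WT and 0.284 to 0.903 CPM in KSR23, and all 4 tested were lower (2 by the quasi-likelihood test). Nearly all of the WT sum was Ctrb1, at 73.2 to 94.5 CPM, and each of the other 5 genes was at 3.5 CPM or less. Their part in the results for the enzymes was not tested. Per M counts of the library total, here without the TMM factor, Y-linked genes summed to 16.1 to 207 in WT and 0.0244 to 148 in KSR23. They were at 171 to 207 on this scale in 4 of 5 WT libraries and at 1 to 9 counts in KSR23 replicates 2, 3 and 5, where Xist, which is expressed in females, had 447 to 1685 counts. By these counts the groups differed in sex makeup, which the labels do not give, and WT replicates 3 and 5 and KSR23 replicate 4 held both kinds of counts (492, 4471 and 4330 Y-linked with 919, 167 and 691 Xist), beside 2 to 24 Xist counts in WT replicates 1, 2 and 4 and KSR23 replicate 1. With Y-linked counts as a covariate Gpx4 and Sod1 were called lower too (adjusted p = 0.0282 and 0.0168).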

How the data were processed

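Jejunum RNA for 5 WT and 5 KSR23 libraries was amplified from oligo-dT primed low-input cDNA without molecular identifiers, so the floor given here holds counting error alone. The 95% intervals of fold changes come from the model fit and hold the spread between libraries. The authors aligned the reads to mm10 with TopHat2 2.1.0 and counted them per gene with HTSeq 0.6.1p1 under strict intersection, and the deposited values are raw counts for 24062 symbols. The strand setting is not given in the sources used here. The counter's own totals were not used as genes, and it set aside 8.62 to 17.1 M alignments per library as not unique, which entered no gene.

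Groups and replicate numbers come from the sample titles. Nothing in the labels beyond these says that libraries are separate animals, so p-values measure the spread between these samples. That spread would be understated if libraries 4 and 5 were not independent of the others, which was not tested. The 17632 genes that reached 5 counts in any library were fitted in edgeR 4.0.16 (R 4.3.3) with TMM factors and trended and gene-wise dispersions. The likelihood ratio test, as in the study's methods, was the main test, with Benjamini-Hochberg adjustment, and the quasi-likelihood test is given beside it. The scripts were tested on simulated data. DESeq2 1.42.0, other scalings, filters, a replicate block, Y-linked counts as a covariate and leaving out libraries were the alternatives. A floor of 3 counts was 0.0427 to 0.119 CPM. Exon lengths, positions and stretches of 75 bases are from GENCODE M21 on mm10, and promoters from RefSeq GRCm38.p6.

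The 10 enzymes, the lists of related genes and the markers were chosen with earlier results of these data known. Named are all 10 enzymes, the related genes called without overlap between groups except 1 that is not reported here, and genes on which a statement about an enzyme turns. Osgin1, Blvrb, G6pdx, Idh1, Lrp8, Atox1 and Dio1, called with overlap, were named after their values were seen. So were Gpx6, Mafg, Txn1, Prdx2, Selk, Sepw1, Idh2 and Sephs2.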

Additional observations from a re-analysis of the deposited data

Results flagged for a closer look

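Each enzyme was examined within each group for 1 library standing far from the other 4, which is 20 groups, of which chance alone would be expected to give 1. There were 2 such groups, both from WT replicate 3. For Sod1 this library was the highest of WT, at a log2 CPM of 6.65 beside 6.23 for the next (100.7 and 75.2 CPM), and the gap was 0.747 of the whole range, above the critical value of 0.71. For Cat the same library was the lowest of WT, at a log2 CPM of 9.26 beside 9.63 for the next (614.2 and 792.6 CPM), with a gap of 0.763 of the range. WT replicate 3 also had the lowest share of Y-linked counts of its group, at 16.1 per M counts of the library total (without the TMM factor) beside 171 to 207 in the others. The part of this in the values was not tested.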

How the results depend on the processing

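Gpx2 was called higher, and no other enzyme was, under all 20 alternatives (log2 fold change 3.57 to 4.19). The number of enzymes called lower was 1 in the main fit and 3 with library totals alone (Gpx3, Gpx4 and Sod1) and with Y-linked counts as a covariate (the same 3 genes), 0 in replicates 1 to 3 by either test, and 1 to 3 when single libraries were left out, the 3 without KSR23 replicate 3 being Gpx3, Gpx4 and Cat. Related genes called higher numbered 11, and 4 in replicates 1 to 3, 0 there by the quasi-likelihood test, and 5 with the Y-linked covariate, which lost Osgin1, G6pdx, Idh1, Tkt and Lrp8 among others (11 to 13 with single libraries left out). Those called lower numbered 9, and 0 in replicates 1 to 3 by either test (7 to 12 with single libraries left out). With single libraries left out, calls were gained for Gpx7 and Mafg without WT replicate 1, for Gss, Txn1 and Gpx6 without KSR23 replicate 1 and for Prdx2, Selk and Sepw1 without KSR23 replicate 3, and calls were lost for Atox1 (8 of 10 libraries) and Dio1 (6 of 10) alone. Sepp1 and Dio1 were also not called with the Y-linked covariate. Fewer libraries enter the fits of replicates 1 to 3, and the libraries left out there were seldom the highest or lowest of their group. The part of each in the lost calls was not tested, nor was the cause of the other changes.

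The log2 fold change of Gpx1, 0.0007, turned sign to -0.018 with DESeq2 and with RLE size factors, -0.059 with library totals alone, -0.025 with 5 or more counts in every library, -0.0038 in replicates 1 to 3 by either test, -0.026 with the replicate block and -0.4 with the Y-linked covariate, and was -0.17 to 0.14 with single libraries left out. With single libraries left out Sod2 was -0.46 to 0.22, Sod3 -1.25 to 0.33 and Nqo1 -0.2 to 0.19. Sod2 was 0.13 with the replicate block and Nfe2l2 was -0.0046 with the Y-linked covariate. All of these were uncalled throughout.

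Same-numbered libraries of both groups did not deviate together (correlations -0.548 to 0.248, and 0 of 5 WT libraries correlated best with their own number), so the numbers were not taken as pairs. With the replicate block 2202 genes were called beside 3262, and 1 enzyme higher and 1 lower, 9 related genes higher and 6 lower. Among called genes 52.6% were higher, and the share ran from 43.2% with library totals alone and 43.8% with the Y-linked covariate to 59.8% in replicates 1 to 3 (70.7% there by the quasi-likelihood test), and was also 59.8% without KSR23 replicate 1 or 4. The lowest counts in a library were 20 for Sod3 and 39 for Gclc, and the part of depth in their errors was not tested.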
